A study of Mus musculus with 2 samples.

Results

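Notch signalling was examined through 9 genes of the pathway, taken by symbol from the 32285 genes measured: the receptors Notch1, Notch2 and Notch3, the ligands Jag1, Jag2, Dll1 and Dll4, and the target genes Hes1 and Hey1. The measurement was single-cell RNA-seq of palatal gingiva from female wild-type C57BL/6J mice aged 8 to 12 weeks. In 1 library the mice had received CpG ODN, a TLR9 ligand, and in the other LPS of P. gingivalis, a TLR2/4 ligand; each ligand was applied topically to the palate for 1 h as 3 µl of a 1 µg/ml solution under an oral appliance, and the gingiva was harvested on day 4. Each library pooled the cells of 4 mice, so that a ligand has 1 library and no replicate, and neither library is an untreated control. No test between the ligands was therefore possible, classes of cells were compared within each library without a test, and every interval given here is a 95% counting interval that covers the sampling of molecules only.

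The genes were read in the 4888 cells (CpG ODN) and 1277 cells (LPS) in which 800 or more genes had been detected. The median depth per cell was 11077.5 UMIs, the unique molecules counted, after CpG ODN and 22680 UMIs after LPS. The libraries shared 5 cell barcodes, of which 1 belonged to a cell kept in both. Cells were clustered without the 9 genes and without 47 other genes of the pathway, and clusters were named only where their leading genes were markers of a class. Because the LPS library was deeper, levels are given as CPM, in which the UMIs of a gene over a class are scaled to the UMIs of all genes in that class, rather than as shares of cells. The level of a gene in a class of droplets reflects both how many cells carry the transcript and how much each holds, which CPM does not tell apart.

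Notch receptors sit in the cell membrane and are activated by ligands of the Jagged and Delta-like families on a neighbouring cell, after which the receptor is cut and its intracellular part enters the nucleus to work with RBPJ. In stratified epithelia the pathway is known for its part in the step from the basal layer to the spinous layers. In vessels, Dll4 is known from arterial and sprouting endothelium and Notch3 from the smooth muscle cells and pericytes that wrap the vessel. Hes1 and Hey1 encode repressors of transcription that are common targets of the pathway, and Hes1 also responds to other signals.

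The layers were named from lists of markers that include Krt5 and Krt76. The levels of these 2 genes thus describe the named classes and are no independent check of the names. Krt5, a keratin of basal cells, stood at 6437 CPM (CpG ODN) and 6680 CPM (LPS) in basal-like cells and at 222 and 298 CPM in upper-like cells. Krt76, a keratin of the palate's spinous cells, stood at 1385 and 1340 CPM in basal-like cells and at 25553 and 24872 CPM in lower spinous-like cells. A further class of 1082 and 182 cells, led by Lgi2 and Krt15 or Krt14, carried too few markers of any layer for a name and is called Lgi2-led; its Krt5 (3402 and 3557 CPM) and Krt76 (8450 and 8027 CPM) lay between those of the basal-like and lower spinous-like cells. The upper-like class joined a cluster led by Krt10, with Krt76 also among its 10 leading genes, and one led by Krt4 and Lor. Of the upper-like cells, the Krt10-led cluster held 70.5% in the CpG ODN library and 45.1% in the LPS library, so that values of the whole class compare different mixtures.

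The 3 receptors had 3 different courses across the keratinocytes. Notch1 (chr2:26457903-26516663, minus strand, GRCm38 as are the positions below) was highest in the lower classes, at 157 CPM (CpG ODN) and 147 CPM (LPS) in basal-like cells and 178 and 192 CPM in Lgi2-led cells. It stood at 72.7 and 84.2 CPM in lower spinous-like cells and at 34.5 and 40.3 CPM in upper-like cells. In both libraries the intervals of basal-like, lower spinous-like and upper-like cells did not overlap. The basal-like level was 4.55 times the upper-like level in the CpG ODN library (interval 4.11 to 5.04) and 3.65 times in the LPS library (3.24 to 4.13).

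Notch2 (chr3:98013527-98150361, plus strand) ran the other way. Its level was 9.32 and 12.4 CPM in basal-like cells, 15.4 and 17.7 CPM in Lgi2-led cells, 25.9 and 27.1 CPM in lower spinous-like cells and 45.9 and 46.6 CPM in upper-like cells. The order of the 4 classes was the same in both libraries, although in the LPS library the intervals of the basal-like and Lgi2-led cells overlapped. The upper-like level was 4.93 times the basal-like level in the CpG ODN library and 3.76 times in the LPS library.

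Notch3 (chr17:32120820-32166852, minus strand) was low in basal-like cells and higher in every class above them. Basal-like cells held 61 UMIs of it in the CpG ODN library (5.17 CPM, 3.95 to 6.64) and 32 in the LPS library (6.01 CPM, 4.11 to 8.48). In the Lgi2-led cells it stood at 44.5 and 52.4 CPM, in the lower spinous-like cells at 41.9 and 51.7 CPM and in the upper-like cells at 29.1 and 35.9 CPM. The intervals of the Lgi2-led and lower spinous-like cells overlapped in both libraries, and both lay above that of the upper-like cells. From basal-like to lower spinous-like cells the level was 8.12 times higher in the CpG ODN library and 8.61 times in the LPS library. This ratio depends on where the basal class ends: with coarser clusters that joined Lgi2-led cells to the basal class, which then held 2054 and 434 cells, the basal-like level was 0.652 and 0.682 of the lower spinous-like level instead of 0.123 and 0.116, and 0.986 and 0.888 of the upper-like level.

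**Figure D1:**
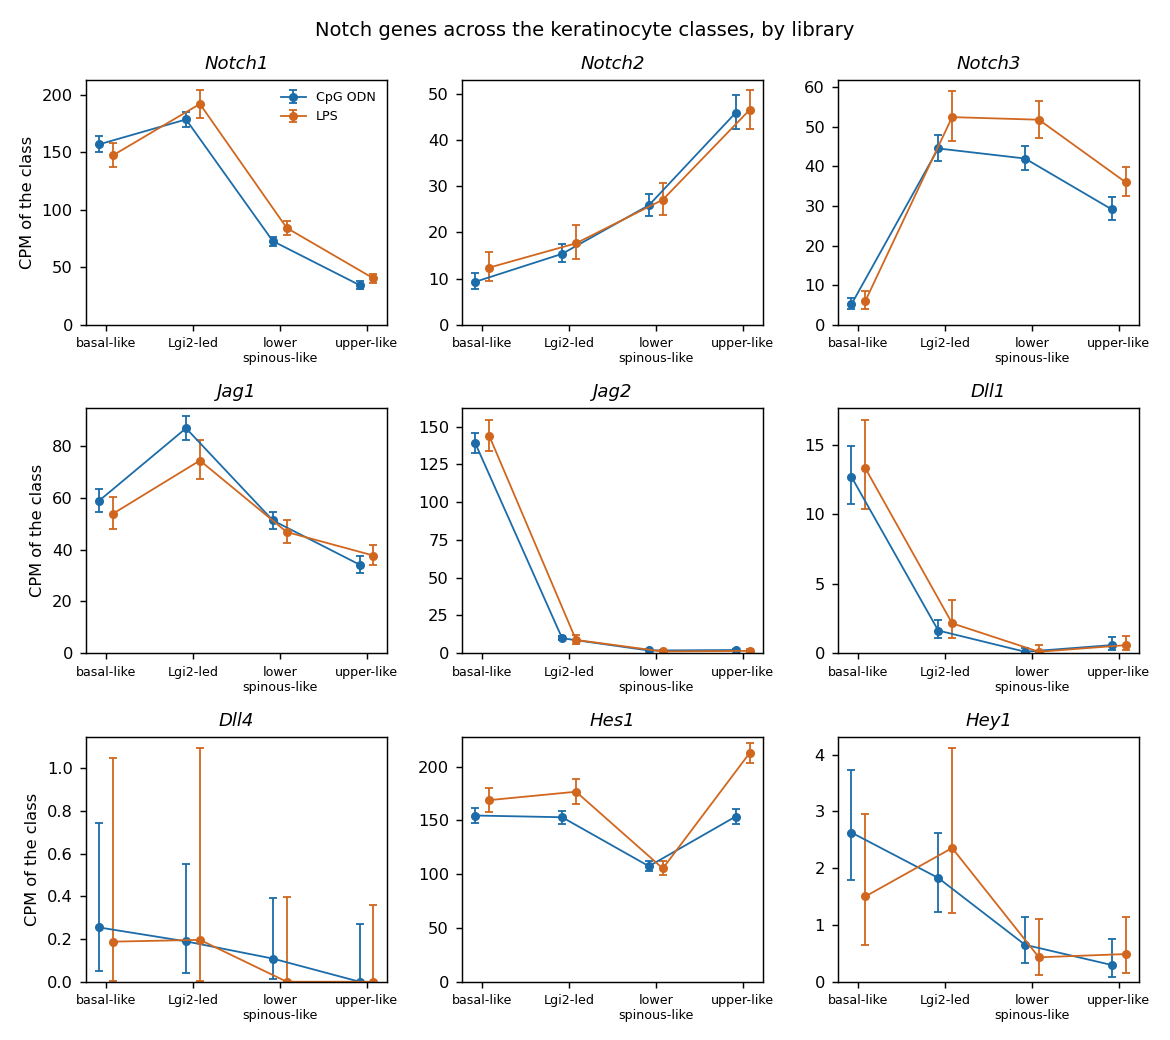
Level of each of the 9 genes in CPM (vertical axis, starting at 0, own scale in each panel) in the 4 keratinocyte classes, from basal-like to upper-like, in the CpG ODN library (blue) and the LPS library (orange). Points are the CPM of the class and bars the 95% counting interval; Jag2 and Dll1 stand far higher in basal-like cells than elsewhere, Notch2 climbs toward the upper-like cells, and Notch3 is low in basal-like cells alone.

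Among the layers the ligands Jag2 and Dll1 were highest in basal-like cells, and most Dll4 UMIs lay in endothelial-like cells, as described next. For these 3 the 250 bases before the RefSeq transcription start are shown because their levels differ many-fold between classes. Of the 9 genes, 7 had such a window in the RefSeq promoter table (GRCm38.p6) and Hes1 and Hey1 did not. Each is printed from 5′ to 3′ on the strand of the gene; capitals mark GGGCGG, the GC box, in Jag2 and Dll4 on either strand, and TGANTCA, the letters of an AP-1 site with any base in the middle, in Dll1. The Jag2 window is chr12:112929496-112929745 (minus strand), that of Dll1 is chr17:15376933-15377182 (minus strand) and that of Dll4 is chr2:119325534-119325783 (plus strand). The Jag2 window lies inside the span of the gene given below, which begins at 112929776 on the minus strand. It is thus upstream of the RefSeq start but not of that gene start.
Jag2: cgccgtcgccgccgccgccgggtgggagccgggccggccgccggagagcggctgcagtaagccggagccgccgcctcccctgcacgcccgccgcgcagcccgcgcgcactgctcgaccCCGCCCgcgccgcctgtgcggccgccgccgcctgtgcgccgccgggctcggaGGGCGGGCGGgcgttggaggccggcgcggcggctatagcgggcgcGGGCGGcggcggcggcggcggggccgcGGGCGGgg
Dll1: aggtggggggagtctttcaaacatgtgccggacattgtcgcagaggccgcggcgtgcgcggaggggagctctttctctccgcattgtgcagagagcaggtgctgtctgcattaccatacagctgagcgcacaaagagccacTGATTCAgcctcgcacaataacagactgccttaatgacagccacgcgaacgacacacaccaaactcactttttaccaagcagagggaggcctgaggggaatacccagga
Dll4: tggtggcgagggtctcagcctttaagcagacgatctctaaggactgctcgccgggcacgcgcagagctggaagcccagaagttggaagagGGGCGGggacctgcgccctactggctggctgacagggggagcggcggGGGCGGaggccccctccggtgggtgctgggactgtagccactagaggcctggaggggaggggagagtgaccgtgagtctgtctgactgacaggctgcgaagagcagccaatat
GGGCGG matched 5 times in the Jag2 window, with 2 matches overlapping, and 2 times in that of Dll4, against 32.7% of all 32851 windows of this length with at least 1 match. TGANTCA matched 1 time in the Dll1 window, against 6.75% of all windows. TGGGAA, the core bound by RBPJ, was searched on both strands and is in none of the 7 windows, and 21.6% of all windows hold it; these are letters in a window and not sites. The GC content was 87.2% in the Jag2 window, 56.0% in that of Dll1 and 65.6% in that of Dll4.

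Jag2 (chr12:112907819-112929776), a Jagged-family ligand, was concentrated in basal-like cells. Basal-like cells held 1640 UMIs of it in the CpG ODN library (139 CPM, 132 to 146) and 767 in the LPS library (144 CPM, 134 to 155). Lgi2-led cells stood at 9.95 and 8.83 CPM, lower spinous-like cells at 1.84 and 1.18 CPM and upper-like cells at 2.13 and 1.56 CPM. The basal-like level was 75.4 times the lower spinous-like level in the CpG ODN library (53.7 to 109) and 122 times in the LPS library (67.6 to 245). The size of this ratio depended on how the classes were drawn: it was 21 at resolution 0.6 in the CpG ODN library and 11.9 with at least 1200 detected genes in the LPS library, and 217 there without the cell with the most Jag2 UMIs. Of all Jag2 UMIs in the cells kept, 66.0% lay in basal-like cells, which held 15.9% of the UMIs of all genes. Leaving out cells with over 20% mitochondrial UMIs changed the upper-like class to 283 and 184 cells and brought the ratio of basal-like to upper-like cells from 65.2 to 7.09 in the CpG ODN library and from 92.4 to 5.51 in the LPS library.

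Dll1 (chr17:15367354-15376872), a Delta-like ligand, had the same course at a lower level. It stood at 12.7 CPM (10.8 to 14.9) and 13.3 CPM (10.4 to 16.8) in basal-like cells and at 1.64 and 2.16 CPM in Lgi2-led cells. In lower spinous-like cells only 2 UMIs in the CpG ODN library and 1 in the LPS library were counted, and in upper-like cells 8 and 6. Against upper-like cells the basal-like level was 21.6 times higher (10.7 to 51.0) in the CpG ODN library and 22.8 times higher (9.97 to 64.2) in the LPS library. Under the same mitochondrial filter these ratios were 2.55 and 2.63.

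Jag1 (chr2:137081456-137116644, minus strand) differed less between the layers. It was highest in Lgi2-led cells, at 86.8 CPM (82.3 to 91.5) and 74.4 CPM (67.1 to 82.2), followed by basal-like cells at 58.9 and 53.9 CPM, lower spinous-like cells at 51.3 and 46.8 CPM and upper-like cells at 34.2 and 37.7 CPM. The basal-like level was 1.15 times the lower spinous-like level in both libraries, with an interval of 1.04 to 1.27 after CpG ODN and of 0.989 to 1.34 after LPS. Dll4 (chr2:119325784-119335962) was nearly absent from the keratinocytes, with 3 and 1 UMIs in basal-like cells, 3 and 1 in Lgi2-led cells, 2 and 0 in lower spinous-like cells and 0 and 0 in upper-like cells.

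With a call set at 2-fold or more in the same direction in both libraries, 4 of the 9 genes were higher in basal-like than in upper-like cells (Notch1, Jag2, Dll1 and Hey1) and 2 were lower (Notch2 and Notch3). Of the 11101 genes with at least 50 UMIs in this comparison, 31.0% were called higher and 10.5% lower. Hey1 and Dll4 were under this minimum of 50 UMIs and 7 of the genes passed it. Differences of this size were thus common among all genes, and nothing particular to the 9 genes is read from the counts. Against lower spinous-like cells, 3 were higher in basal-like cells (Jag2, Dll1 and Hey1, where 20.1% of 11035 genes were) and 2 lower (Notch2 and Notch3, where 6.17% were). Between lower spinous-like and upper-like cells, Notch1 alone passed, 2.11 and 2.09 times higher in the lower spinous-like cells, where 4.09% of 10629 genes were called, and none of the 9 was higher in upper-like cells (5.85%). Part of each ratio is shared by most genes: the median gene of at least 50 CPM stood 0.20 (log2, both libraries) higher in basal-like than in upper-like cells and 0.14 higher (both libraries) than in lower spinous-like cells. With size factors, which remove that shift, the 2-fold calls between basal-like cells and each other layer stayed at the same counts, and Notch1 in the LPS library fell to 1.98 between lower spinous-like and upper-like cells.

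The targets were Hey1 and Hes1. Hey1 (chr3:8663359-8667256, minus strand) was scarce in all keratinocytes: 31 and 8 UMIs in basal-like cells gave 2.63 CPM (1.78 to 3.73) and 1.5 CPM (0.648 to 2.96), and 4 and 5 UMIs in upper-like cells gave 0.294 and 0.487 CPM. In the LPS library these intervals overlapped. Hes1 (chr16:30064384-30067796, plus strand) stood at 155 and 169 CPM in basal-like cells, 153 and 177 CPM in Lgi2-led cells, 107 and 105 CPM in lower spinous-like cells and 154 and 213 CPM in upper-like cells. The lower spinous-like cells were thus the lowest of the 4 classes in both libraries, and basal-like and Lgi2-led cells did not differ beyond their intervals. At resolution 0.6 this order turned, with basal-like Hes1 at 0.734 and 0.871 of the lower spinous-like level.

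Hes1 differed further within each of the 3 lower classes. Each of these classes consisted of a pair of clusters that differed in the level of Fos, an immediate early gene. In basal-like cells Hes1 stood at 263 CPM (249.3 to 277.6) in the cluster with more Fos and at 70.8 CPM (64.6 to 77.5) in the other in the CpG ODN library, and at 284 against 84.6 CPM in the LPS library. In Lgi2-led cells the levels were 258 against 83.8 CPM in the CpG ODN library and 253 against 111 CPM in the LPS library. In lower spinous-like cells they were 183 against 60.1 CPM and 188 against 70.8 CPM. The ratio lay between 2.28 and 3.72 over the 3 classes and 2 libraries, and no interval of a pair overlapped.

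The same clusters differed in a list of 10 immediate early genes (Fos, Fosb, Jun, Junb, Egr1, Atf3, Ier2, Ier3, Zfp36 and Dusp1) that was written after the values had been seen. Their summed level was 8521 CPM against 1720 CPM in the basal-like pair of the CpG ODN library and 8657 against 1431 CPM in that of the LPS library. In the lower spinous-like pair it was 10014 against 2034 CPM and 10371 against 1553 CPM. These genes were among those that formed the clusters, their part in the Hes1 difference was not tested, and genes of this list are also known to rise while tissue is taken apart into cells. Notch1 and Jag2 differed little inside the basal-like pair: in the CpG ODN library Notch1 stood at 153 and 160 CPM and Jag2 at 137 and 140 CPM in the clusters with more and less Fos, and in the LPS library at 145 and 149 CPM and at 137 and 149 CPM. Notch3 was lower with more Fos, at 3.50 against 6.45 CPM (18 and 43 UMIs) and at 3.55 against 7.81 CPM (8 and 24 UMIs, ratio interval 0.176 to 1.04). Jag1 was also lower, at ratios of 0.838 (0.717 to 0.979) and 0.706 (0.547 to 0.906). Dll1 was higher, at 1.48 (1.06 to 2.07) and 1.32 (0.807 to 2.17). Hey1 was higher as well, at 2.72 in both libraries (1.23 to 6.47 and 0.730 to 41.4), from 21 against 10 and 6 against 2 UMIs, the last set to 3. Without the basal-like and lower spinous-like clusters with more Fos, Hes1 in basal-like cells was 0.461 of the upper-like level in the CpG ODN library instead of 1.01. In the LPS library it was 0.398 instead of 0.794. The upper-like class was kept whole there. Its Krt10-led and Krt4-led clusters held the 10 genes at 10871 and 7757 CPM in the CpG ODN library and at 9598 and 8459 CPM in the LPS library. These ratios thus set basal-like cells with few such transcripts against upper-like cells with many.

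**Figure D2:**
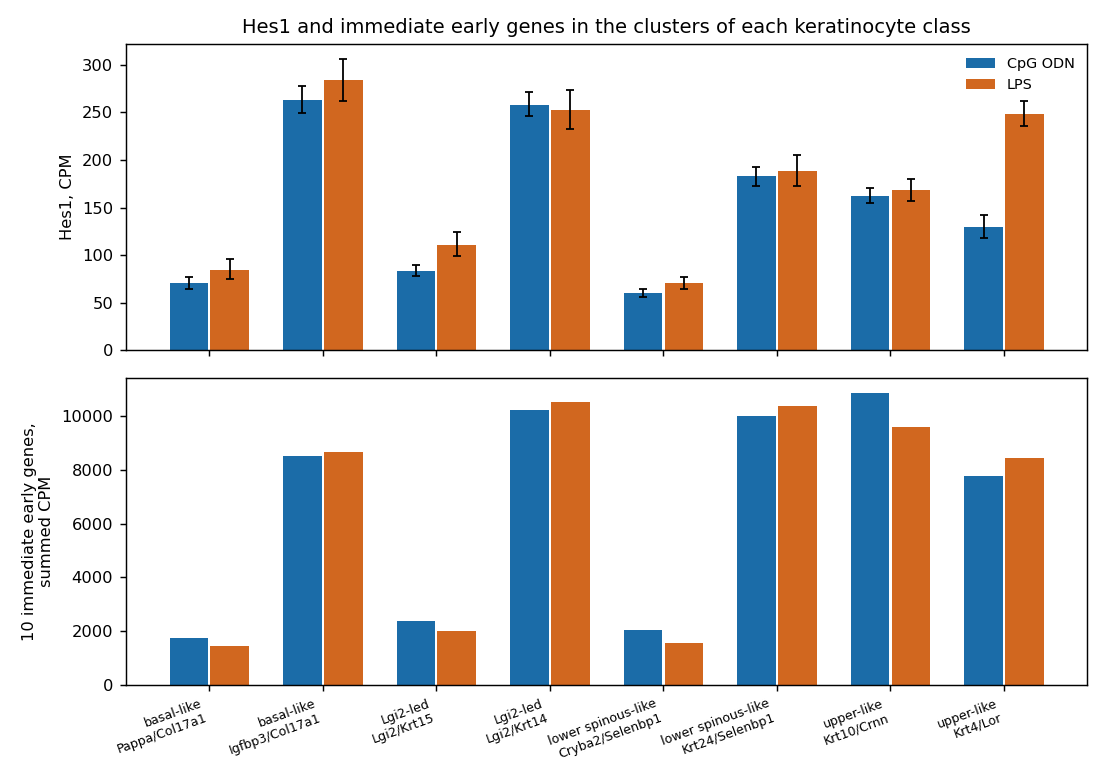
Hes1 in CPM with its 95% counting interval (upper panel) and the summed CPM of 10 immediate early genes (lower panel) in the 8 clusters that make up the 4 keratinocyte classes, each named by its class and leading genes, in the CpG ODN library (blue) and the LPS library (orange). In the 3 lower classes the cluster with more immediate early transcripts also held more Hes1, and in the Krt4 and Lor cluster of upper-like cells Hes1 was higher in the LPS library.

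Outside the layers, 4 smaller epithelial classes were found. Dividing keratinocyte-like cells (220 and 53 cells) held Notch1 at 200 and 173 CPM and Jag2 at 76.0 and 76.8 CPM, the latter below the level of basal-like cells and above that of Lgi2-led cells. A class led by Wfdc18 and Bpifa2 (200 and 140 cells), left without a name, held Jag2 at 91.4 and 93.7 CPM and Dll1 at 22.2 CPM (16.5 to 29.2) and 17.0 CPM (12.8 to 22.1). Hey1 was 3.48 CPM and 8.35 CPM there, from 8 and 27 UMIs. Junctional epithelium-like cells (17 and 18 cells) held Notch2 at 59.0 and 57.5 CPM and Jag1 at 75.9 and 77.2 CPM, with little Jag2 (25.3 and 23.0 CPM). Gland-like cells (12 and 14 cells) held Hes1 at 151 and 401 CPM and at most 11 CPM of Notch1, Notch3, Jag1, Jag2, Dll1, Dll4 and Hey1. The cells of these last classes are few, and in the LPS library a single gland-like cell gave 27.3% of the Hes1 UMIs.

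**Figure D3:**
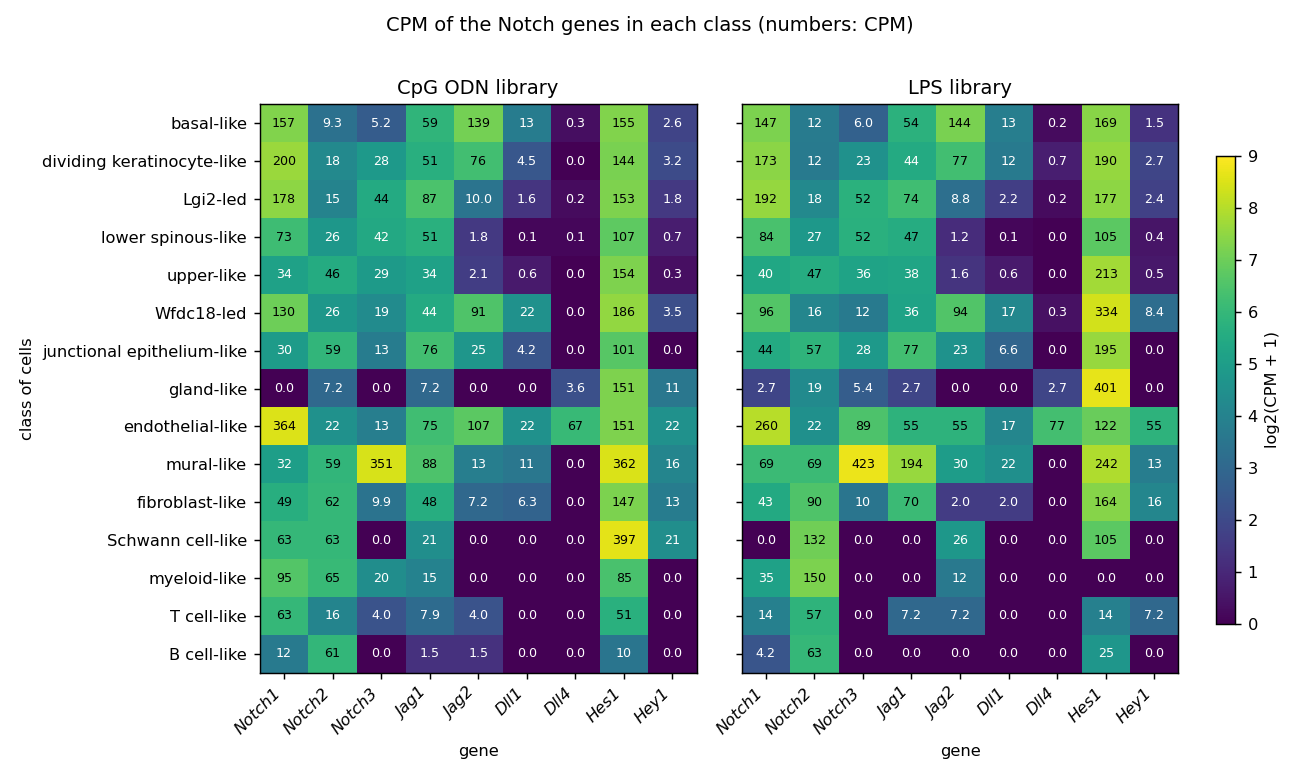
CPM of the 9 genes (columns) in 15 classes of cells (rows) in the CpG ODN library (left) and the LPS library (right), with the colour on the log2(CPM + 1) scale and the CPM written in each field. Jag2 is high in basal-like, dividing and Wfdc18-led epithelium, Notch3 in mural-like cells, and Dll4 in endothelial-like cells.

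Vessel cells had a Notch profile of their own. Endothelial-like cells (49 and 24 cells, with median depths of 3220 and 5295.5 UMIs) were defined by Pecam1 (1003 and 1090 CPM) and Cdh5 (519 and 814 CPM), which were at most 1 CPM in the layers. They held Notch1 at 364 CPM (290 to 452) and 260 CPM (191 to 346), which is 4.36 and 3.27 times the level of the summed basal-like, lower spinous-like and upper-like keratinocytes. The gap was smaller to basal-like cells alone, at 157 and 147 CPM. Lgi2-led cells, which are not in that sum, held 178 and 192 CPM (180 to 204 in the LPS library). In the LPS library the intervals of endothelial-like and Lgi2-led cells overlapped. Dll4, which the keratinocytes nearly lacked, stood at 66.6 CPM (37.3 to 110) and 77.5 CPM (42.4 to 130), from 15 and 14 UMIs. Of the 14 UMIs in the LPS library, 6 came from 3 cells with at least 3 UMIs of Rgs5, which are described below. Endothelial-like cells held 67.4% of the 43 Dll4 UMIs of all cells kept, although they were 1.18% of the cells. A Dll4 UMI was found in 24.5% and 37.5% of the endothelial-like cells and in 0 of the 285 B cell-like cells of the CpG ODN library, which had a median depth of 2150 UMIs and where a count of 0 allows up to 1.05% of cells with a UMI.

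Hey1 stood at 22.2 CPM (7.21 to 51.8) and 55.3 CPM (26.5 to 102) in endothelial-like cells, from 5 and 10 UMIs, against 1.07 and 0.683 CPM in the keratinocytes. Jag2 stood at 107 and 55.3 CPM, which was 2.74 and 1.74 times the level of the summed keratinocytes. Both values lay below those of basal-like cells alone, at 139 and 144 CPM. Krt14, a keratin of basal cells (20584 and 19604 CPM), was at 386 and 55.3 CPM in the endothelial-like cells, and the part of keratinocyte RNA in their Jag2 level was not tested. In the comparison with keratinocytes, 4 of the 9 genes were called higher in endothelial-like cells (Notch1, Dll1, Dll4 and Hey1), where 19.0% of 11822 genes were, and none was called lower (4.93%). Dll4 was under the minimum of 50 UMIs that these shares use, and 8 of the 9 genes passed it. The Dll1 call rests on 5 and 3 UMIs, at 22.2 and 16.6 CPM, and Wfdc18-led cells held about as much, at 22.2 and 17.0 CPM. The median gene of at least 50 CPM stood 0.56 and 0.50 (log2) higher in endothelial-like cells, and with size factors the Notch1 ratios were 2.96 and 2.31.

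Mural-like cells (76 and 23 cells, with Acta2 at 21331 and 22190 CPM) held Notch3 at 351 CPM (294 to 417) and 423 CPM (343 to 515). This is 12.5 times (10.4 to 15) the keratinocyte level in the CpG ODN library and 11.9 times (9.58 to 14.7) in the LPS library, and in the LPS library 1 cell gave 22.4% of the UMIs. Jag1 stood at 88.5 CPM (60.9 to 124) and 194 CPM (142 to 260), and Hes1 at 362 CPM (303 to 428) and 242 CPM (182 to 314). Notch1 was lower there than in endothelial-like cells, at 32.2 and 69.0 CPM, and Dll4 had no UMI in either library, where 3 UMIs would be 8.04 and 12.9 CPM. Called higher than in keratinocytes were 4 of the 9 genes (Notch2, Notch3, Dll1 and Hey1), where 19.0% of 11840 genes were, and none was called lower (6.39%). Notch2 stood at 59.0 CPM (37.0 to 89.3) and 69.0 CPM (39.4 to 112). Its intervals overlapped those of upper-like cells alone (45.9 and 46.6 CPM) in both libraries. Fibroblast-like cells, at 62.0 and 90.2 CPM, and B cell-like cells, at 61.5 and 63.3 CPM, held about as much Notch2. The median gene stood 0.39 and 0.42 (log2) higher in mural-like cells, and with size factors the Notch2 ratio fell from 2.13 to 1.62 in the CpG ODN library and from 2.16 to 1.61 in the LPS library. Hey1 rests on 6 and 3 UMIs.

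Sub-clusters resolved the vessel classes further, and are named by their leading genes. Among endothelial-like cells, the 36 cells led by Ly6c1, Cd36 and Flt1 held 20 of the 29 Dll4 UMIs (113 CPM over both libraries), 14 of the 15 Hey1 UMIs (78.9 CPM), all 19 Notch3 UMIs and Jag2 at 152 CPM. The 26 cells led by Glycam1 and Selp held Notch1 at 179 CPM, Dll4 at 38.9 CPM and no Hey1 UMI. The 11 cells led by Mmrn1, Lyve1 and Prox1, which are genes of lymphatic vessels, held Notch1 at 350 CPM, Dll4 at 40.0 CPM and Jag2 at 10.0 CPM. Notch3 was not seen in either of these latter sub-clusters.

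Among mural-like cells, the 40 cells led by Pln and Des held Notch3 at 531 CPM, the 24 led by Ccn3 and Ptgis at 251 CPM and the 17 led by hemoglobin genes, Rgs5 and Pdgfrb at 654 CPM. Jag1 was 124, 87.9 and 354 CPM in them. The remaining 18 cells, led by Wfdc18, Pcp4 and Krt17, held Acta2 (17098 CPM) and Krt14 (3345 CPM) together and had no UMI of Rgs5, Pdgfrb or Notch3. Their leading genes are not markers of vessel cells, and whether they belong to vessels was not tested. The values of the mural-like class include them. All 12 Jag2 UMIs and all 9 Dll1 UMIs of the mural-like class lay in these 18 cells, so that the Dll1 call of the class came from them.

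Notch3 in endothelial-like cells was 13.3 CPM in the CpG ODN library (3 UMIs) and 88.6 CPM in the LPS library (16 UMIs). Of the 16 UMIs, 11 came from 1 cell that also held 253 UMIs of Rgs5, a gene of pericytes. All 16 came from the 3 cells of the LPS library with at least 3 Rgs5 UMIs. These 3 cells also held 6 of the 14 Dll4 UMIs and 6 of the 10 Hey1 UMIs of that library. Without such cells 0 Notch3 UMIs were left, for which the floor of 3 UMIs gives at most 0.607 of the keratinocyte level, against 2.50 with them.

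**Figure D4:**
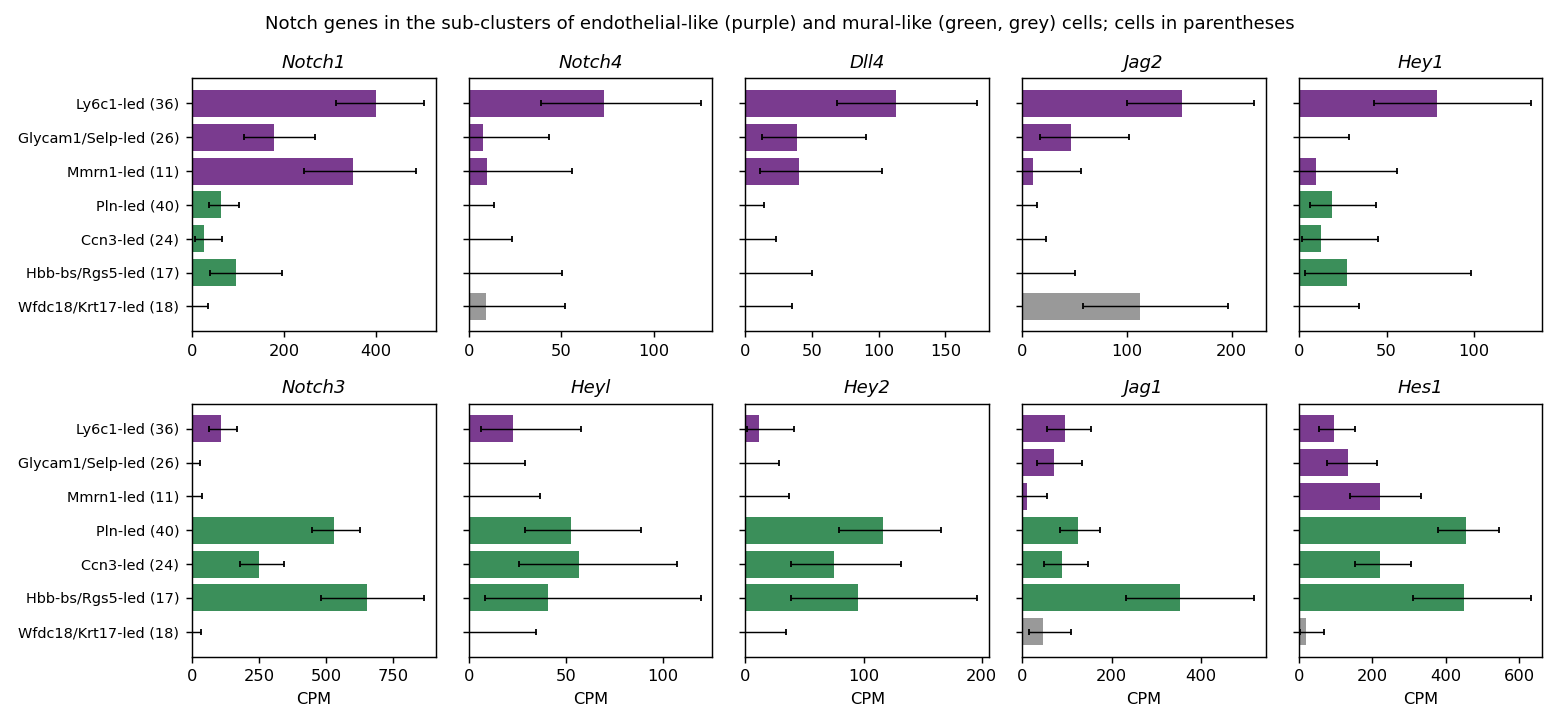
CPM (horizontal axis, own scale in each panel) of 10 Notch genes in the sub-clusters of endothelial-like cells (purple) and mural-like cells (green, and grey for the sub-cluster with keratin transcripts), with UMIs of both libraries summed, 95% counting intervals, and the number of cells in parentheses. Dll4 and Notch4 are highest in the Ly6c1-led cells, Notch3, Heyl and Hey2 in the 3 green sub-clusters, and Jag2 among mural-like cells occurs in the grey one alone.

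Among the other cells, fibroblast-like cells (238 and 53) held Notch2 at 62.0 and 90.2 CPM, Jag1 at 47.6 and 69.7 CPM, Hes1 at 147 and 164 CPM and Hey1 at 12.6 CPM (6.88 to 21.1) and 16.4 CPM (7.08 to 32.3). B cell-like cells (285 and 69) held Notch2 at 61.5 CPM (44.3 to 83.1) and 63.3 CPM (35.5 to 104). They held less Hes1, at 10.2 and 25.3 CPM from 7 and 6 UMIs, and Notch1, at 11.7 and 4.22 CPM, and hardly any other member. Myeloid-like cells (32 and 13) held Notch2 at 65.3 and 150 CPM, from 13 UMIs in each library. T cell-like cells (80 and 26) held Notch1 at 63.3 and 14.3 CPM, from 16 and 2 UMIs. Schwann cell-like cells (23 and 11) held Hes1 at 397 CPM (239 to 620) and 105 CPM (28.7 to 270), from 19 and 4 UMIs. A class led by Ighg2b (238 and 4 cells), left without a name, held at most 14.6 CPM of any of the 9 genes in the CpG ODN library. Fibroblast-like cells carried Jag2 at 7.19 and 2.05 CPM beside Krt14 at 2082 and 764 CPM; the part of free transcripts of keratinocytes in this low level was not tested.

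A list of 47 other genes of the pathway gives the setting of these receptors and ligands. Between basal-like and upper-like cells 34 of them passed the filter of 50 UMIs, 16 of the 47 were called higher in basal-like cells, where 31.0% of all genes tested were, and 3 were called lower (10.5%). Those higher included Lfng, which adds sugar to the receptors and thereby changes their response to ligands, at 28.0 and 34 CPM in basal-like against 0.515 and 0.0974 CPM in upper-like cells. Dlk2, a non-canonical ligand related to the Delta family, stood at 65.1 and 71.1 CPM against 0.515 and 0.292 CPM. Also among those higher in basal-like cells were Hes6, Maml2, Psen2, Pofut1, Poglut1, Mib1, Mib2, Neurl1a, Numbl, Itch, Fbxw7, Dtx3 and Dtx3l. Among those lower were Dlk1, a non-canonical ligand at 0.424 and 0.188 CPM against 1.62 and 2.14 CPM, and Nrarp, a target gene that feeds back on the pathway. Nrarp rose with the layers, from 17.8 and 19.5 CPM in basal-like cells to 69.2 and 80.2 CPM in Lgi2-led cells, 90.2 and 110 CPM in lower spinous-like cells and 115 and 126 CPM in upper-like cells, and its upper-like level was 6.47 and 6.43 times the basal-like level.

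Against lower spinous-like cells 8 of the 47 were higher in basal-like cells (among them Dlk2, Maml2, Poglut1, Lfng, Neurl1a, Fbxw7 and Dtx3), where 20.1% of all genes tested were, and Nrarp alone was lower (6.17%). Of the 47, 33 passed the filter there and 31 between lower spinous-like and upper-like cells, where Hes6 and Dtx3 were higher (4.09% of all genes tested) and Dlk1 and Hes2 lower (5.85%). Rbpj, which encodes the DNA-binding partner of the receptors, was 23.6 and 20.6 CPM in basal-like cells and 9.19 and 11.2 CPM in upper-like cells, under 2-fold in the LPS library. Rfng ranged from 10.6 to 16 CPM over the 3 layers and libraries, and Numb, an inhibitor of the receptors, from 9.83 to 18.3 CPM. Hes5 and Dll3 were at or below 0.6 CPM in every layer and library.

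In endothelial-like cells 19 of the 47 were higher than in keratinocytes, where 19.0% of all genes tested were, and Nrarp alone was lower (4.93%). Of the 47, 35 passed the filter that these shares use, and Notch4, which is among the 19, did not. Notch4, a receptor of endothelium, stood at 35.5 and 38.7 CPM against 0.296 and 0.161 CPM, from 8 and 7 UMIs. Lfng was 62.2 and 49.8 CPM and Mfng, a further sugar-transferring enzyme, 53.3 and 38.7 CPM. Also among them were Rbpj, Maml1, Maml2, Ep300, Adam10, Psen2, Aph1b, Furin, Poglut1, Neurl1b, Numb, Itch, Dtx1, Dtx3 and Dtx3l. In mural-like cells 11 were higher (19.0% of all genes tested) and none lower (6.39%). Again 35 passed the filter, and Heyl, which is among the 11, did not. Hey2 and Heyl, targets known from vessel walls, were 83.1 and 81.9 CPM and 40.2 and 47.4 CPM in mural-like cells; keratinocytes had 0.342 and 0.201 CPM of Hey2 and no UMI of Heyl. The others were Rbpj, Maml2, Ep300, Furin, Mib1, Neurl1b, Numbl, Dtx3 and Dtx3l. Hey2 and Heyl had no UMI in the 18 mural-like cells with keratin transcripts.

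Between the libraries the layers differed little. In basal-like, lower spinous-like and upper-like cells none of the 9 genes was 2-fold apart in either direction; of all genes, 0.472%, 0.341% and 0.449% were higher after CpG ODN and 0.341%, 0.341% and 2.16% after LPS. Jag2 in basal-like cells had a CpG ODN to LPS ratio of 0.965 (0.885 to 1.05), Notch1 of 1.06 (0.978 to 1.16) and Dll1 of 0.954 (0.714 to 1.28). Notch3 was lower after CpG ODN in lower spinous-like cells, at 0.811 (0.723 to 0.910), and in upper-like cells, at 0.810 (0.701 to 0.936). Notch1 was 0.864 (0.790 to 0.944) and 0.855 (0.747 to 0.978) in the same classes, but the latter was 2.30 with each library clustered on its own, which left 188 and 31 upper-like cells. With that clustering Notch3 in basal-like cells went from 0.860 to 2.57. These intervals leave out 1 but contain no variation between mice.

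Of those among the 9 that reached 50 UMIs in a layer, Hes1 in upper-like cells had the ratio farthest from 1, at 0.723 (0.680 to 0.768). It lay in the cluster led by Krt4 and Lor, where Hes1 stood at 129 CPM (118 to 142) after CpG ODN and 248 CPM (235 to 261) after LPS, and not in the Krt10-led cluster, where it stood at 162 and 168 CPM. The Wfdc18-led class showed a like gap, with 186 CPM (169 to 204) after CpG ODN and 334 CPM (314 to 354) after LPS. Ratios below 1 whose intervals left out 1 were also seen in junctional epithelium-like (0.518), gland-like (0.377) and dividing keratinocyte-like cells (0.758). So they were in single clusters of the Lgi2-led (0.755), basal-like (0.837) and lower spinous-like cells (0.849). Ratios above 1 were seen in Schwann cell-like (3.77), mural-like (1.5) and myeloid-like cells (2.47, with 0 UMIs after LPS set to 3). The summed immediate early genes were 7757 and 8459 CPM in the Krt4-led cluster. Over the alternatives the upper-like ratio ranged from 0.521 to 1.04, the latter with at least 1200 detected genes, which left 80 and 32 upper-like cells.

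In vessels the counts were small. In endothelial-like cells Notch3 and Hey1 were called higher after LPS, where 2.86% of 1258 genes were, and none of the 9 was called higher after CpG ODN (3.02%). These shares use genes with at least 50 UMIs, which 2 of the 9 genes reached. Neither called gene did, with 3 and 16 UMIs of Notch3 and 5 and 10 of Hey1, so the shares do not apply to them. The Notch3 call rests wholly on the Rgs5-rich cells described above and the Hey1 call in part: of the 10 Hey1 UMIs of the LPS library, 6 came from them, and without such cells the Hey1 ratio was 0.802 and neither gene was called. Dll4, not called either way, had a ratio of 0.859 with these cells and 1.20 without them. In mural-like cells Notch1, Jag1, Jag2 and Dll1 were called higher after LPS, where 1.8% of 1831 genes were, and none after CpG ODN (1.69%). Here too the shares use genes with at least 50 UMIs. Of the 9 genes 3 reached that minimum, and of the called ones Jag1 alone. Notch1 rests on 12 and 16 UMIs, Jag2 on 5 and 7 and Dll1 on 4 and 5, so the shares do not apply to these calls. Of the 4 called genes, the interval of Jag1 alone leaves out 1, with a ratio of 0.456 (0.282 to 0.730) from 33 and 45 UMIs. The sub-cluster with keratin transcripts, which held all Jag2 UMIs of the mural-like cells, made up 11 of the 76 mural-like cells after CpG ODN and 7 of the 23 after LPS, and without it and the lymphatic-led cells 2 of the 9 genes were called. Hes1 went the other way in mural-like cells, at 1.5 (1.09 to 2.08).

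**Figure D5:**
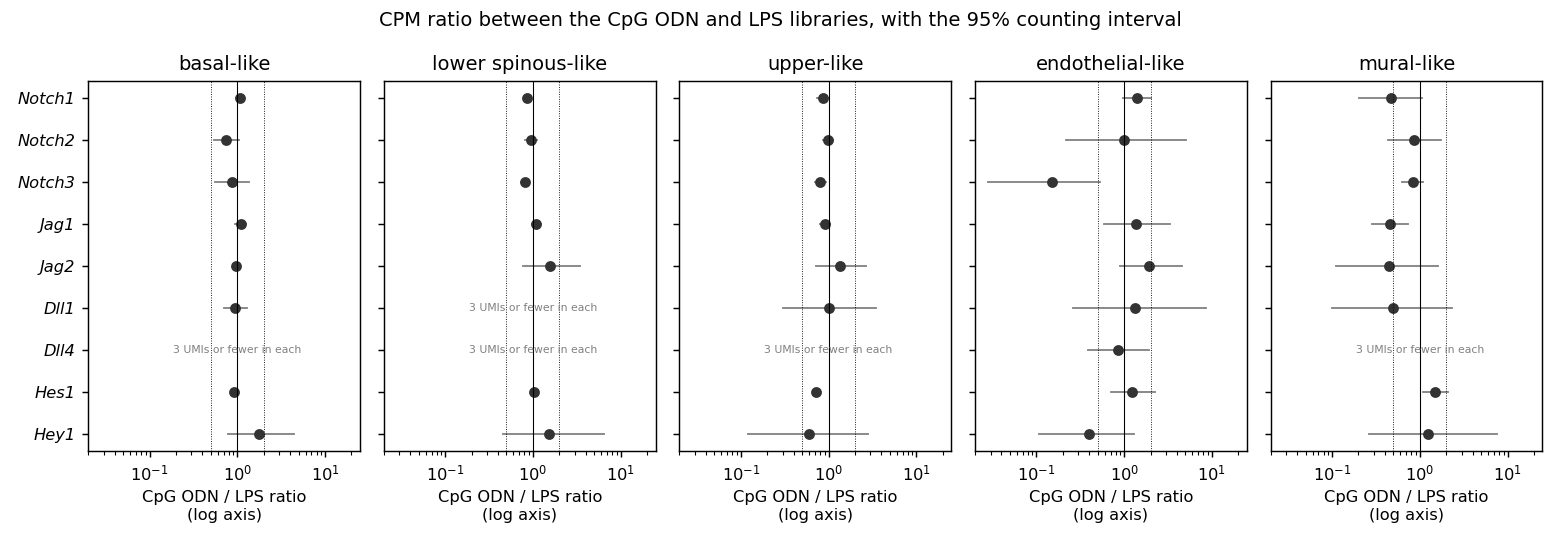
Ratio of the CPM in the CpG ODN library to that in the LPS library (horizontal log axis) for the 9 genes in 5 classes of cells; points are ratios, grey lines the 95% counting interval, the solid line equality and the dotted lines 2-fold differences. In the 3 layers every point with a ratio lies inside the 2-fold lines, while intervals in vessel cells are wide.

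Genes whose levels ran most like those of the members were sought over 20 points, the 11 named classes with at least 20 cells in a library, among 11287 genes; the points share libraries and differ in depth. For Jag2 the nearest were Slc16a13 (r = 0.924), Itga3 (0.915), an integrin of basal cells, and Serinc2 (0.885). For Dll1 they were Eogt (0.936), whose product adds a sugar to Notch receptors, St6galnac2 (0.910) and Enho (0.907). For Notch1 they were Palmd (0.877), Rac1 (0.870) and Smad1 (0.865), for Notch2 Siah2 (0.821), Jund (0.814) and Fbxo33 (0.806), and for Notch3 Tmem51 (0.895), Ttll7 (0.884) and Krt7 (0.866). For Jag1 they were Pls3 (0.925), Ctdspl (0.923) and Atp2b4 (0.913), for Hes1 they included Hmgn3 (0.922) and Mlf2 (0.916), and for Hey1 Tm4sf1 (0.935), Apbb2 (0.929) and Prpf40b (0.924). Dll4, with 43 UMIs, was under the minimum of 200 for this search.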

How the data were processed

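The 2 libraries were made from dissociated palatal gingiva and sequenced by the 10x Chromium method. For each library the authors deposited raw counts of UMIs per gene and barcode, a matrix made with Cell Ranger (4.0.0 in the file header) and not normalized; the genome build is not given in the sources used here. Of the 32285 gene identifiers, 32158 are in GENCODE M21 (GRCm38). Barcodes under 800 detected genes were left out, which removed 1331 of 6219 (CpG ODN) and 739 of 2016 (LPS); no mitochondrial filter was set and doublets were kept. After scaling each cell to 10000 UMIs and taking logs, 2000 variable genes (scored inside each library) and 30 principal components with 15 neighbours entered the Leiden algorithm at resolution 1.0 (leidenalg 0.10.2, igraph 0.11.9, Python 3.11.15, numpy 2.4.6, scipy 1.17.1, scikit-learn 1.9.0). Vessel clusters were clustered again with 10 components and 8 neighbours.

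A cluster was named for the class with most of its markers among the cluster's top 10 genes by fold, if at least 3 markers were found; this rule was set after the data were seen, and another rule may give other names. Counts were summed per class and library and divided by the class total (CPM, exact Poisson intervals; ratios by the exact conditional binomial interval; all cover counting error only). A gene was called at 2-fold with counts under 3 set to 3, and only with at least 3 UMIs on the higher side. The calling code was run on simulated data for basal-like against upper-like cells, where 200 of 200 genes changed 4-fold were recovered among 11101. The simulated counts had no spread between cells or mice and covered genes with at least 50 UMIs. This run therefore says nothing on the calls in vessel cells that rest on few UMIs. The members, the 47 pathway genes and the markers were chosen with earlier results of these data known. The 9 genes were named throughout, and of the pathway list a fixed 13 plus those called between classes; a few genes are not reported here. No p-value was computed: each ligand has 1 library, and classes were not tested against each other.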

Additional observations from a re-analysis of the deposited data

Results flagged for a closer look

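Hes1 had CpG ODN to LPS ratios on both sides of 1 with counting intervals that left out 1: 0.915 in basal-like cells and 0.723 in upper-like cells, against 1.5 in mural-like cells. The difference between these classes was not tested.

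Barcodes under 800 detected genes, which entered no comparison, also held transcripts of the pathway above the limit of 3 UMIs. In the 1331 such barcodes of the CpG ODN library there were 74 UMIs of Notch2, 47 of Hes1, 24 of Notch1, 11 of Jag2, 10 of Jag1 and 4 of Notch3. In the 739 of the LPS library there were 12 of Hes1, 11 of Notch1, 9 of Notch2, 5 of Jag2 and 4 of Jag1. Dll1 and Dll4 had 0 UMIs in these barcodes of both libraries. Their median depth was 1163 and 1885 UMIs.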

How the results depend on the processing

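No paired analysis was possible because only 1 library was made for each ligand; classes were compared within each library, and no test was run on them. Each count of genes called was recomputed under 17 listed alternatives and 5 chosen after seeing the data; 346 of these values were within 1.5 times the count reported and 54 were not. Chosen after seeing the data were the single upper-like clusters and the fits without clusters with more Fos, without the vessel sub-clusters and without Rgs5-rich cells. Of the ratios of single genes, 1906 moved by no more than their interval, 242 moved further and 7 of those called at 2-fold changed direction; a further 104 that were not called crossed 1. Basal-like over upper-like (4 genes) and over lower spinous-like (3), and endothelial-like over keratinocytes (4), stayed within 1.5 times under all alternatives. The doublet method marked 54 cells after CpG ODN and 1 after LPS, too few to show that it worked in the latter.

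With at least 200 detected genes, lower spinous-like over basal-like fell from 2 genes to 1 and over upper-like from 1 to 0, and 1 gene each was called after CpG ODN in lower spinous-like and after LPS in upper-like cells, where 0 were. With at least 1200, lower spinous-like over upper-like became 2, and 1 gene each was called after LPS in lower spinous-like and after CpG ODN in endothelial-like cells. The filter at 20% mitochondrial UMIs gave 0 for lower spinous-like over upper-like and 2 for the reverse; resolution 1.6 gave 0 and 1, the Krt4-led cluster alone 0 and 1. Resolution 0.6 gave 1 for upper-like over basal-like, 0 for lower spinous-like over basal-like and 1 after CpG ODN in upper-like cells. With each library clustered alone, upper-like over basal-like was 1, lower spinous-like over upper-like 0, mural-like over keratinocytes 2 instead of 4, the reverse 1, and the calls after CpG ODN were 1 in basal-like and 2 in upper-like cells and after LPS 2 in mural-like cells. With cells taken 1 by 1, keratinocytes over mural-like was 1, and calls were 1 after CpG ODN in upper-like, 0 after LPS in endothelial-like instead of 2, and 2 in mural-like cells instead of 4. Without doublets 1 was called after LPS in upper-like cells. With a mean over cells, lower spinous-like over upper-like was 0, 1 was called after CpG ODN in each of endothelial-like and mural-like cells, and 2 after LPS in mural-like cells; with size factors the former was also 0. Without the top cell of each gene, mural-like over keratinocytes was 2, calls after CpG ODN were 1 in lower spinous-like and 1 in endothelial-like cells, and after LPS 1 in mural-like cells. A floor of 1 gave 1 for upper-like over lower spinous-like. A fold of 1.5 gave 2 there, calls after CpG ODN of 1 in basal-like, 2 in lower spinous-like and 1 in endothelial-like cells, and 1 after LPS in upper-like cells. A fold of 3 gave 1 for lower spinous-like over basal-like, 0 over upper-like, 2 for mural-like over keratinocytes, and after LPS 1 in endothelial-like and 0 in mural-like cells. The Krt10-led cluster alone gave 1 after CpG ODN in upper-like cells. Without the basal-like and lower spinous-like clusters with more Fos, lower spinous-like over basal-like was 1 and upper-like over lower spinous-like 1. Without the keratin-led and lymphatic-led sub-clusters, 1 was called after CpG ODN in endothelial-like and 2 after LPS in mural-like cells. Without Rgs5-rich endothelial-like cells, 0 were called after LPS there.

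Dll1 between lower spinous-like and upper-like cells of the CpG ODN library (0.276, from 2 UMIs set to 3 and 8 UMIs) became 1.32 with at least 1200 genes (40 and 0 UMIs, the latter set to 3), 2.67 at resolution 0.6 (16 and 3) and 2.05 with cells taken 1 by 1 (10 and 2, the latter set to 3). Hes1 there in the LPS library (0.495) became 1.08 with at least 1200 genes. Notch3 in endothelial-like cells over keratinocytes of the LPS library (2.50) became 0.799 without the top cell; with cells taken 1 by 1 and without Rgs5-rich cells 0 UMIs were left, and 3 UMIs give upper limits of 0.646 and 0.607. The cause of these changes was not tested, other than where the alternative left out the cells that held the UMIs.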
